A study of Apostichopus japonicus with 12 samples.

Results

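The temperature by oxygen interaction asks of each gene whether warming changed its transcript level by a different amount when oxygen was low than when it was not. It was computed from all 12 RNA sequencing libraries of the series, made from intestines of Apostichopus japonicus, a sea cucumber and so a marine echinoderm. For each gene the difference between warm low-oxygen and cool low-oxygen animals was taken, and the difference between warm animals and controls was subtracted from it. The result is the amount, on the log2(FPKM + 1) scale, by which the combined response departed from the sum of both single responses. FPKM is a count of sequenced fragments scaled by the length of the transcript and the depth of the library. Genes were included where FPKM reached 1 in at least 3 libraries, which held for 15615 of 26461 gene models. Genes were not chosen by a test of their response. However, 920 of those tested (5.89%) reached the FPKM minimum only through the warm low-oxygen libraries.

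There were 4 groups of 3 libraries, all taken after 6 h. Controls were held at 18 °C. High-temperature animals were kept at 26 °C and 7 mg/L dissolved oxygen, low-oxygen animals at 18 °C and 3 mg/L, and combined animals at 26 °C and 3 mg/L. Water was warmed with heating rods and oxygen was lowered with nitrogen gas, and the animals weighed about 100 g. The oxygen level of the controls is in doubt, because the control labels give none and the series text gives them 3 mg/L, the level of the low-oxygen group. If that figure were right, the contrast would not be the interaction it is named for. Whether animals of 1 group shared a tank is not stated, so p-values measure the spread between these libraries.

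Warming unfolds proteins. Cells answer with heat shock proteins, which are driven by heat shock factor, and with the unfolded protein response of the endoplasmic reticulum (ER), which raises the chaperones and disulfide isomerases that fold secreted proteins. Low oxygen is sensed largely through hypoxia-inducible factor, which favours glycolysis over respiration. In a sea cucumber the intestine digests sediment and stores and mobilises nutrients, and the animal stops feeding and shrinks its gut when summer water warms. Warm water also holds less oxygen while it raises oxygen demand, so both stresses meet in nature. On a log scale an interaction of 0 means that the fold changes of both stresses multiply.

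The libraries held 8146906 to 10855050 fragments assigned to genes. Combined replicates 1 and 3 stood apart from the other 10 libraries in scaling, with a normalising library size of 0.529 and 0.526 of their own fragments against 0.935 to 1.58 elsewhere, so results are also given without them. The 10 most abundant genes took 19.8% to 44.0% of the fragments. Digestive genes were present in every library: the summed FPKM of the 50 listed models ran from 1321 to 6118 over the 12 libraries, led by a phospholipase A2 and maltases, and 1 of the 50 (CPA5, a carboxypeptidase) was listed at 0 throughout. In bulk tissue a lower transcript level from fewer cells of a type and from less RNA per cell cannot be told apart.

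The combined response lay above the sum of the single responses for 8 genes and below it for none at an adjusted p under 0.05 (limma with Benjamini-Hochberg adjustment over all genes tested). The 8 genes are 0.0512% of the 15615 tested. At an unadjusted p under 0.05 there were 643 positive genes, 4.12% of those tested, and 381 negative ones, 2.44%. The voom method on recovered fragments passed 0 in either direction, and scaling every library to the same total FPKM passed 1 positive and 1 negative. Without combined replicates 1 and 3 the counts were 58 positive, 7 of them among the 8, and 3 negative. The count of positive genes fell to 2 without control replicate 2, high-temperature replicate 1 or any 1 of the low-oxygen replicates, to 3 and 5 without high-temperature replicates 3 and 2, and was 18 without combined replicate 3.

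Across all genes the departures were centred near 0, with a median of 0.00 and quartiles of -0.58 and 0.60 on the log2 scale. An absolute departure of at least 1 was found in 3990 genes, 25.6%, yet the median standard error of the interaction was 0.70, against 0.50 for the combined group minus control. For comparison, the combined group differed from control in 93 genes upward and 30 downward, 0.596% and 0.192%. High temperature alone passed the threshold in 7 genes upward (0.0448%) and 4 downward (0.0256%), and low oxygen alone in 0 upward and 1 downward (0.0064%). Between warm and cool low-oxygen animals 62 genes were higher (0.397%) and 4 lower (0.0256%), and between warm low-oxygen and warm animals 32 were higher (0.205%) and 2 lower (0.0128%). These comparisons share libraries with the interaction and are given only for scale.

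**Figure D1:**
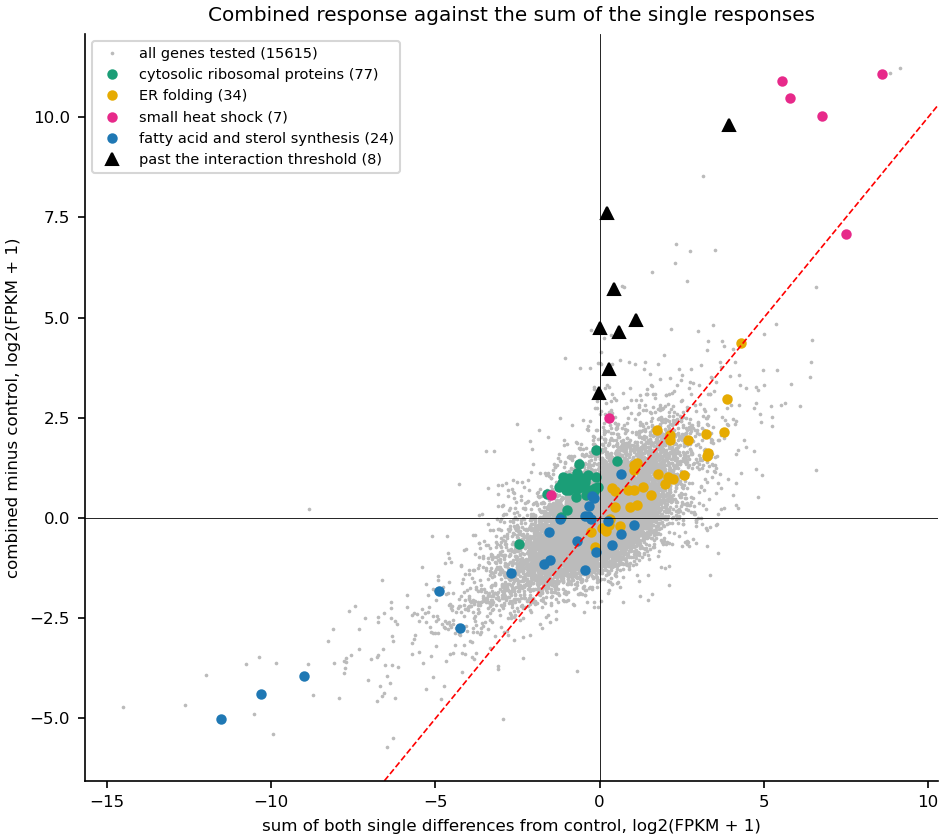
Each point is a gene; the horizontal axis is the sum of the high-temperature and low-oxygen differences from control and the vertical axis the combined difference from control, both on the log2(FPKM + 1) scale, and the red dashed line marks a combined response equal to the sum. The 8 genes past the threshold (black triangles) lie above the line, ribosomal protein genes (green) lie above it as a group, and most ER folding genes (yellow) lie below it.

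Positive interactions took different shapes. Of the 643 positive genes at an unadjusted p under 0.05, 357 (55.5%) had their highest group mean in the combined animals, a response larger than the sum of its parts. Another 285 (44.3%) had their highest mean in the controls: these genes were lower under each stress alone and were not lower by the sum of both when the stresses met. In 164 of those 285 genes (57.5%) the sum itself would lie below an FPKM of 0, which no gene can reach. This held for 52 of the 357 genes highest in the combined animals (14.6%) and for 799 of all 15615 genes (5.12%). In such a gene the interaction is positive whatever the combined value. Of the 381 negative genes, 268 (70.3%) had their lowest mean in the combined animals and 111 (29.1%) in the controls.

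Among the 8 genes past the threshold, the only one matched to a protein of the cell itself was SrpRalpha (evm_TU_Chr15_285), matched to the Drosophila alpha subunit of the signal recognition particle receptor, which docks ribosomes making secreted proteins at the ER membrane. The gene model has 15 exons on chromosome 15 from 8964154 to 8980055, plus strand, in the coordinates of the authors' annotation. Its FPKM was 10.3, 12.5 and 12.7 in the controls and 13.5, 14.1 and 12.8 under low oxygen. At high temperature it was 18.7, 16.7 and 40.1, and in the combined animals 306, 466 and 411. The combined libraries were all far above the other 9, while low oxygen alone left the level just over the controls. The sum of the single responses would have given an FPKM of 26.6, and the interaction was 3.82 ± 0.53 on the log2 scale (SE; adjusted p = 0.0181). It passed the threshold in 5 of the 12 fits that each left out a library, with adjusted p from 0.0166 to 0.0869.

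The largest departure of the 8 was that of an assembled model without a database match on the minus strand of chromosome 10, from 3184174 to 3190996. It had no fragment in any control and 0 to 3 fragments in each high-temperature and low-oxygen library. The combined libraries held 1147, 2601 and 320 fragments, an FPKM of 282, 332 and 80.3. No combined library came near the other groups. No library of those groups reached an FPKM of 1, so the filter itself required every combined library to lie above them. The combined mean was at least 690-fold higher than the control floor of 3 fragments per library. The interaction was 7.39 ± 0.67 (adjusted p = 0.00136), and it passed in all 12 fits that left out a library. A second unmatched model lies on the plus strand of the same stretch (3184035 to 3190999) and overlaps the minus-strand one over 6823 bases. Its FPKM was 0 in every control, 0 to 0.708 under single stress and 60.2, 80.9 and 28.1 in the combined animals, at least 197-fold over the control floor. The same limit of the filter holds for this model. Its interaction of 5.27 ± 0.59 (adjusted p = 0.00695) also passed in all 12 fits. The library protocol does not describe a strand-marking step, so reads of these overlapping models cannot be told apart. The nearest named neighbour, Gtf2a2, which encodes a general transcription factor subunit, had an interaction of 0.80 (adjusted p = 0.785).

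Another pair of short unmatched models had their highest levels in the combined group. The first, evm_TU_Chr20_326, is a single-exon model of 228 bases on chromosome 20 (10622616 to 10622843, minus strand) and had 0 fragments in all 9 libraries of the other groups. The combined libraries held 40, 92 and 12 fragments, an FPKM of 35.6, 42.7 and 10.9. Fragment numbers of this size make its level uncertain. It passed the filter only through the combined libraries, so the groups could not overlap, and their separation is no support. Its mean was at least 24.5-fold over the control floor, and the interaction was 4.74 ± 0.62 (adjusted p = 0.0181). The second, evm_TU_Chr21_398, has 2 exons on chromosome 21 (11833946 to 11834801, minus strand). It was at 0 in all control and low-oxygen libraries, at 7.21, 29.8 and 13.1 FPKM at high temperature and at 1801, 1045 and 371 in the combined animals. It rose at high temperature alone (log2 difference 3.93, adjusted p = 0.0206), stayed at 0 at low oxygen and rose far more where both met. Its combined mean was at least 928-fold over the control floor, and its interaction was 5.86 ± 0.80 (adjusted p = 0.0181).

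A transposon-derived model was next. An assembled model matched the Pol polyprotein of the Drosophila retrotransposon 17.6, the enzyme chain that copies and inserts such elements, and lay on chromosome 4 (28877190 to 28883978, minus strand). Its FPKM was 0.344, 0.268 and 0.281 in controls, 0.633, 0.0598 and 0.199 at low oxygen and 0.782, 2.20 and 0.336 at high temperature. In the combined animals it was 28.7, 34.6 and 30.7. The 3 combined libraries lay close together and far above the rest, with an interaction of 4.06 ± 0.53 (adjusted p = 0.0181). It met the FPKM minimum only through those libraries. It lies within a model on the opposite strand matched to vitronectin, an adhesive matrix protein, whose own interaction was -0.88 (adjusted p = 0.814). An unmatched model on the same strand overlaps the Pol match over 6151 bases and was not among the genes tested. Its FPKM was 0, 1.07 and 32.1 in combined replicates 1, 2 and 3. How reads were divided between these overlapping models was not tested. Retroelements have many near-identical copies, so the source of these reads is uncertain.

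The last pair are unmatched models on the minus strand of chromosome 9. The first (26060202 to 26067641) had an FPKM of 0 to 0.277 in the other 9 libraries and 7.71, 7.78 and 9.29 in the combined ones, with an interaction of 3.15 ± 0.42 (adjusted p = 0.0181). The second (29498493 to 29505495) had 0 to 1.07 elsewhere and 17, 11.6 and 16.1 in the combined libraries, with an interaction of 3.43 ± 0.49 (adjusted p = 0.0217). In both, every combined library was above every other library, and both met the FPKM minimum only through the combined libraries. For the first, with no other library at an FPKM of 1, the filter itself required that order. Each lies beside a named gene on the opposite strand. The gene beside the first, at 2271 bases, is TTLL9, matched to an enzyme that adds glutamates to tubulin, with an FPKM of 1.59 to 8.54 elsewhere and 129, 118 and 18.3 in the combined animals. TTLL9 rose in the combined group against control (log2 3.90, adjusted p = 0.0145), and its interaction of 3.00 ± 0.91 did not pass (adjusted p = 0.585). The gene beside the second, at 259 bases, is CG9164, described with the genes just short of the threshold. Of the 8 genes, the 5 other than SrpRalpha and the chromosome 10 pair passed in 4 to 6 of the 12 fits that left out a library.

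**Figure D2:**
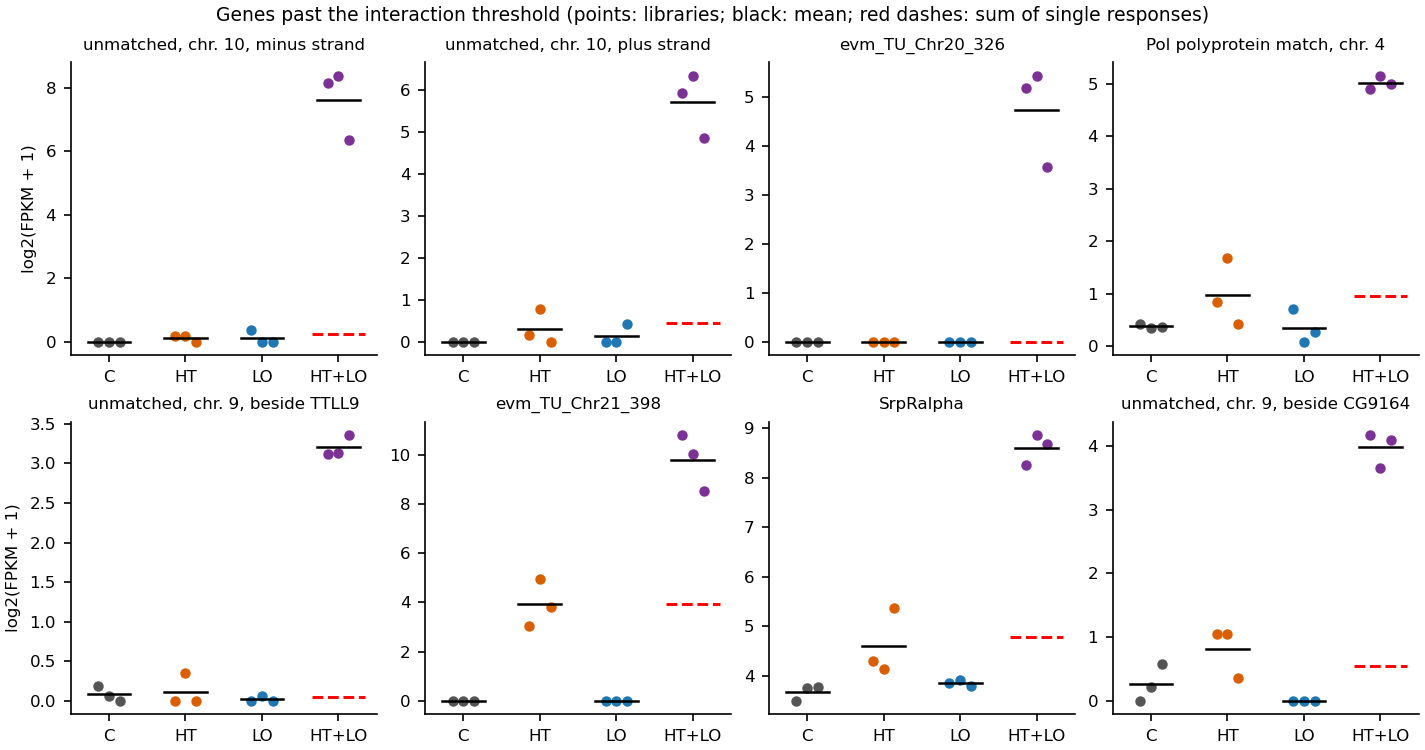
Each panel shows 1 of the 8 genes past the interaction threshold; points are log2(FPKM + 1) in the 3 libraries of control (C), high temperature (HT), low oxygen (LO) and combined (HT+LO) animals, black lines are group means and red dashes are the sum of the single responses. In every panel the combined points sit above the red dashes, and in SrpRalpha they are 306 to 466 FPKM against a sum of 26.6.

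The named genes with the smallest unadjusted p that did not pass included further retroelements with the same shape. TY3B-G, an assembled model matched to the Ty3-G element of yeast, had an FPKM of 0.0119 to 1.5 in the other 9 libraries and 23.0, 68.9 and 9.69 in the combined ones (interaction 5.04 ± 0.82, adjusted p = 0.0527, with a sum below an FPKM of 0). Tf2-11, matched to a transposon of fission yeast, had 0.0704 to 0.392 and then 12.6, 43.0 and 7.29 (4.04 ± 0.71, adjusted p = 0.0766). Every combined library was above all others for both, and both rose in the combined group against control (adjusted p = 0.00544 and 0.00316). Both reached the FPKM minimum only through the combined libraries, so this separation is no support. For Tf2-11, with no other library at an FPKM of 1, the filter itself required that order. Of 82 retroelement and transposon models 26 were tested; 1 passed the interaction threshold. Of the 26, 9 reached the FPKM minimum only through the combined libraries, and these 9 include all 6 that had every combined library above every other. The inclusion of such a gene depended on its level in the combined group, so counts over the tested retroelements are no result about retroelements as a group. The same holds for 6 of the 8 genes past the threshold and for 920 of all genes tested (5.89%).

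Other positive named genes short of the threshold were of other kinds. CG9164 (chromosome 9, 29505755 to 29508191, plus strand), matched to a Drosophila membrane protein family, was at 0 to 0.822 FPKM elsewhere and at 8.95, 45.5 and 27.2 in the combined animals, an interaction of 4.20 ± 0.70 (adjusted p = 0.062). With no other library at an FPKM of 1, the filter itself required every combined library of CG9164 to lie above the rest. GGCT, gamma-glutamylcyclotransferase, an enzyme of glutathione turnover, was at 2.98 to 5.65 in the other libraries and at 39.2, 185 and 46.0 in the combined ones. Single-stress libraries of GGCT stayed close to the controls, and it rose in the combined group (log2 3.85, adjusted p = 0.00322), with an interaction of 3.82 ± 0.74 (adjusted p = 0.135). Nfil3, a leucine zipper transcription factor known in mammals for roles in immunity and the daily clock, had the other shape: 6.03, 7.27 and 43.5 in controls and 0.221 to 2.36 in all 9 stressed libraries. Its interaction was 4.29 ± 0.83 (adjusted p = 0.135), both single-stress means lay below the control mean, and its sum lay below an FPKM of 0. Of the remaining positive genes named by the same rule, a model with GTF2I-like repeats (evm_TU_Chr1_302) was at 0 to 0.542 elsewhere and at 6.80, 3.96 and 6.44 in the combined animals (2.61 ± 0.47, adjusted p = 0.0829). The limit of the filter given for CG9164 holds for this model too. Ssc5d, a soluble scavenger receptor, had 3.90 ± 0.76 (adjusted p = 0.139), and its sum lay below an FPKM of 0. SULT1B1, a sulfotransferase, had 2.77 ± 0.56 (adjusted p = 0.17) with 3.24 to 6.21 in controls and 0 to 1.38 in all stressed libraries, and its sum too lay below 0.

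Heat shock proteins and other chaperones came next by role. Genes of small heat shock proteins, which keep unfolded chains soluble, had the highest median interaction of the 34 gene lists, 2.47 over 7 genes, 6 of them positive. Leaving out 1 library gave medians from 2.10, without control replicate 2, to 4.12, without high-temperature replicate 2. The median was 3.87 without combined replicates 1 and 3. After scaling to equal totals it was 1.27, where that of all genes was -0.76. None of the 7 passed the interaction threshold, and 4 had a positive interaction at an unadjusted p under 0.05, against 4.12% of all genes. For evm_TU_Chr17_459, matched to Hsp67Bc of Drosophila, FPKM was 0, 0.140 and 0.228 in controls, 1.38, 53.7 and 10.1 at high temperature, 5.42, 9.51 and 1.07 at low oxygen and 1957, 11505 and 431 in the combined animals. The combined libraries were highest throughout, but the single-stress libraries ranged widely and the interaction was 5.35 ± 1.67 (adjusted p = 0.594). In the combined group 5 of the 7 rose against control, against 0.596% of all genes. All combined libraries were above every other for 5 of the 7, against 1.36% of all genes, and 0 of the 7 reached the FPKM minimum only through the combined libraries. CRYAB, alpha-crystallin B, was at 12.7 to 85.6 elsewhere and at 540, 199 and 163 in the combined animals (2.22 ± 0.93, adjusted p = 0.758).

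The co-chaperones DNAJB4 and BAG3 had their highest values in the combined animals. DNAJB4, which feeds unfolded proteins to HSP70, was at 16.8, 10.4 and 6.32 FPKM in controls and 17.1, 37.3 and 19.2 at low oxygen. It was at 27.9, 94.0 and 16.4 at high temperature and at 891, 1773 and 962 in the combined animals. Every low-oxygen library was above every control, and the high-temperature ones ran from within the control range to 94.0. The combined libraries stood well apart, against a sum of 75.4. The interaction was 3.91 ± 0.85 (adjusted p = 0.228), and the gene rose in the combined group against control by 6.65 (adjusted p = 0.000183). BAG3, the nucleotide exchange factor that links HSP70 to autophagy, was at 3.53 to 5.38 in controls, 4.75 to 45.5 under single stress and 200, 2392 and 542 in the combined animals (4.51 ± 1.19, adjusted p = 0.49). Combined replicate 2 was the highest of the 3 for both genes. Over all 34 DnaJ genes the median interaction was 0.14 with 20 positive and none past the threshold.

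HSP70 genes, the main ATP-driven chaperones, did not share 1 pattern. The HSP70IV match on chromosome 10 (evm_TU_Chr10_597) was at 3.68, 0.970 and 0.713 in controls and 1.17, 1.82 and 1.17 at low oxygen. It was at 13.5, 18.5 and 15.3 at high temperature and 246, 175 and 80.6 in the combined animals. Low oxygen alone left it in the control range, yet warm low-oxygen animals exceeded warm animals (log2 3.20, adjusted p = 0.012). Its interaction was 3.28 ± 0.67 (adjusted p = 0.184). The most abundant HSP70, evm_TU_Chr2_481, was at 0.390 to 2.46 in controls, 25.9, 482 and 100 at high temperature, 19.4, 61.5 and 5.62 at low oxygen and 2620, 14773 and 2871 in the combined animals. Both single stresses were already above control, and its interaction of 2.24 ± 1.47 had an adjusted p of 0.777. The 13 HSP70 genes tested had a median of 0.29, with 7 positive and 6 negative. HSP70 and small heat shock genes have near-identical copies, so which copy a read came from is uncertain.

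HSP90-beta (hsp90ab1), the chaperone of kinases and receptors, was near the sum. It was at 49.8, 72.1 and 79.3 in controls, 773, 2455 and 802 at high temperature, 145, 89.6 and 147 at low oxygen and 1969, 2587 and 836 in the combined animals. High-temperature and combined libraries overlapped, and the interaction was -0.41 ± 0.76 (adjusted p = 0.917). An interval of that width does not show that the responses multiply. The 16 genes of the HSP90 list had a median of -0.09, with 7 positive, and 10 chaperonin genes one of 0.66, with 7 positive. Neither list had a member past the interaction threshold. The HSP70, HSP90 and DnaJ lists each share members with the ER folding list described next, among them endoplasmin of the HSP90 list.

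ER folding genes were the main list on the negative side. Of 34 tested, 27 had a negative interaction and 7 a positive one, with a median of -0.53 against 0.00 over all genes. None passed the threshold, and 3 had an unadjusted p under 0.05, all negative, a share of 8.82% against 2.44% over all genes. Their median difference between high temperature and control was 1.08, and that between combined and low-oxygen animals 0.51. Calreticulin (CALR), a calcium-binding chaperone of glycoproteins, was at 52.1, 59.0 and 69.9 in controls, 112, 94.8 and 82.6 at low oxygen, 341, 335 and 456 at high temperature and 172, 204 and 188 in the combined animals. The combined libraries lay between low oxygen and high temperature without overlap, well short of a sum of 594. Calreticulin rose at high temperature (log2 2.62, adjusted p = 0.0125) and in the combined group (1.63, adjusted p = 0.038), and its interaction was -1.65 ± 0.45 (adjusted p = 0.517).

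PDIA4, a disulfide isomerase, had the same order of groups. It was at 11.7 to 18.5 in controls, 169, 134 and 153 at high temperature, 27.6, 19.8 and 26.3 at low oxygen and 139, 67.4 and 42.1 in the combined animals. Its interaction was -1.64 ± 0.60 (adjusted p = 0.745). PDIA3, another isomerase, had -1.48 ± 0.65 (adjusted p = 0.758) and endoplasmin (Hsp90b1), the ER form of HSP90, -1.14 ± 0.56 (adjusted p = 0.766). Endoplasmin was at 412, 360 and 453 at high temperature and 410, 267 and 137 in the combined animals, which overlapped. The list median depended on combined replicate 3, the lowest of its group for calreticulin's partners PDIA3, PDIA4 and endoplasmin: it was -0.12 without that library and -0.14 without combined replicates 1 and 3.

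**Figure D3:**
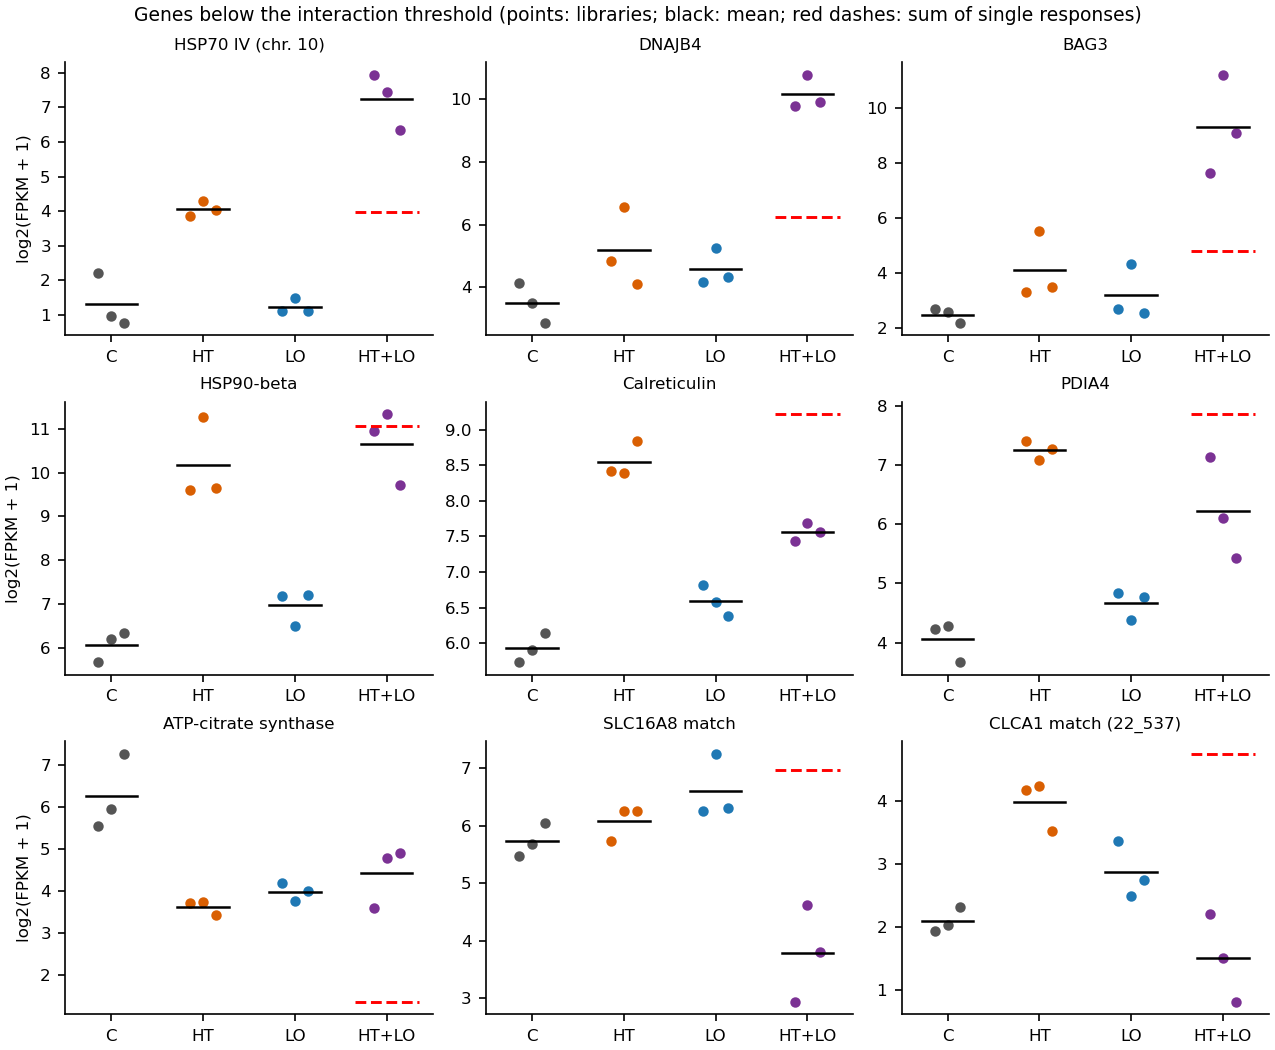
Points are log2(FPKM + 1) in the libraries of control (C), high temperature (HT), low oxygen (LO) and combined (HT+LO) animals for 9 genes that did not pass the interaction threshold; black lines are group means and red dashes the sum of the single responses. The top row of HSP70 IV, DNAJB4 and BAG3 lies above the dashes, calreticulin and PDIA4 lie below them, ATP-citrate synthase is lower than control under each stress without adding up, and SLC16A8 and CLCA1 matches are lowest in the combined animals.

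Several other named genes with the smallest p on the negative side had their lowest mean in the combined animals. The CLCA1 match evm_TU_Chr22_537 (chromosome 22, 16892326 to 16914491, plus strand), related to a secreted mammalian protein of goblet cell mucus, was at 2.81, 3.10 and 3.99 in controls and 9.32, 4.62 and 5.67 at low oxygen. It was at 17, 17.7 and 10.5 at high temperature and 3.61, 1.85 and 0.759 in the combined animals. Both single stresses lay above the controls without overlap and the combined libraries overlapped the controls from below. Its interaction was -3.23 ± 0.60 (adjusted p = 0.102), and it fell from warm to warm low-oxygen animals (log2 -2.46, adjusted p = 0.0327). The neighbouring CLCA1 match evm_TU_Chr22_536 (16875229 to 16891130, plus strand) had -3.30 ± 0.69 (adjusted p = 0.199), and reads may be shared between such neighbours.

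SLC16A8 (chromosome 3, 19321785 to 19337926, plus strand), matched to a human transporter of lactate and other monocarboxylates, was at 43.2, 50.1 and 65.4 in controls. It was at 52.2, 75.7 and 75.8 at high temperature, 75.5, 151 and 78.3 at low oxygen and 6.68, 23.5 and 12.9 in the combined animals. All combined libraries were below every other library, a pattern held by 147 genes, 0.941% of those tested. The gene fell from cool to warm low-oxygen animals (log2 -2.82, adjusted p = 0.0164), and its interaction was -3.17 ± 0.64 (adjusted p = 0.173). Gulp1, an adapter for engulfing dying cells, was also lowest in all combined libraries, at 0.530 to 1.71 against 1.76 to 16.2 elsewhere (-3.27 ± 0.73, adjusted p = 0.262). Hsd17b7, an enzyme of sterol synthesis, was high at low oxygen alone, at 2.05 to 4.95 against 0.0303 to 0.477 in the other 9 libraries (-2.0 ± 0.49, adjusted p = 0.365). The rest named on this side were Chst15, a sulfotransferase acting on chondroitin chains (-2.96 ± 0.67, adjusted p = 0.262), Bet1, a vesicle fusion protein of the ER to Golgi route (-2.05 ± 0.52, adjusted p = 0.442), Commd9, an endosomal sorting protein (-2.64 ± 0.72, adjusted p = 0.517), and Map2k6, a kinase that activates p38 (-1.90 ± 0.54, adjusted p = 0.551).

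Cytosolic ribosomal protein genes lay above the sum as a block. All 77 tested had a positive interaction, against 50.2% of all genes, with a median of 1.64 and quartiles of 1.42 and 1.77. None passed the threshold, and 27 (35.1%) had an unadjusted p under 0.05, against 4.12% of all genes. The list's median log2(FPKM + 1) was 10.53, 10.06 and 10.11 in controls, 10.30, 10.88 and 9.23 at high temperature and 9.37, 9.34 and 9.92 at low oxygen. In the combined animals it was 10.86, 10.30 and 12.03. Low-oxygen libraries were below the controls, the combined replicate 3 was above all, and the other combined libraries overlapped the controls and the warm ones. Without combined replicate 3 the median was 1.12, and without replicates 1 and 3 it was 0.82. Such genes are co-regulated and highly abundant, so 77 genes are not 77 independent observations, and near-identical copies may share reads. RPS27L was the member with the smallest p, at 139 to 178 in controls, 103 to 113 at low oxygen, 143 to 290 at high temperature and 534, 343 and 762 in the combined animals (1.81 ± 0.56, adjusted p = 0.594).

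Respiratory chain genes leaned the same way. Of 69 genes of oxidative phosphorylation 61 had a positive interaction, with a median of 0.96, 13 (18.8%) at an unadjusted p under 0.05 and none past the threshold. The median was 0.54 without combined replicates 1 and 3. NDUFB2, a small subunit of complex I, was at 90.2, 41.0 and 69.7 in controls, 52.3, 88.2 and 16.5 at high temperature, 19.1, 23.5 and 1.31 at low oxygen and 208, 243 and 173 in the combined animals. Low-oxygen libraries were below the controls and the combined ones above every other, and it rose from cool to warm low-oxygen animals (log2 4.31, adjusted p = 0.0406). Its interaction was 4.88 ± 1.15 (adjusted p = 0.312). COX6C, of cytochrome c oxidase, was at 315 to 587 in controls, 153 to 268 at low oxygen, 176 to 221 at high temperature and 367, 285 and 681 in the combined animals (2.06 ± 0.59, adjusted p = 0.551). Both single-stress groups were below all controls, and the combined libraries spread over and past the control range. Mitochondrial ribosomal proteins had a median of 0.46, with 48 of 67 positive, which was 0.13 without combined replicate 3 and 0.22 without combined replicates 1 and 3. Genes of the tricarboxylic acid cycle had a median of 0.35, with 25 of 34 positive.

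Scaling mattered for these lists. When every library was scaled to the same total FPKM, the median interaction of all genes moved from 0.00 to -0.76. The ribosomal median became 0.55, still 1.31 above that of all genes. The respiratory median became -0.09, a change of sign, which is 0.67 above that of all genes. Small heat shock genes stayed 2.03 above it and ER folding genes 0.61 below it, a value of -1.37. The small heat shock, ribosomal and muscle lists were the only 3 of the 34 whose median stayed above 0 under that scaling. With the median of all genes at -0.76, a list below 0 could still lie above all genes, as the respiratory list did.

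**Figure D4:**
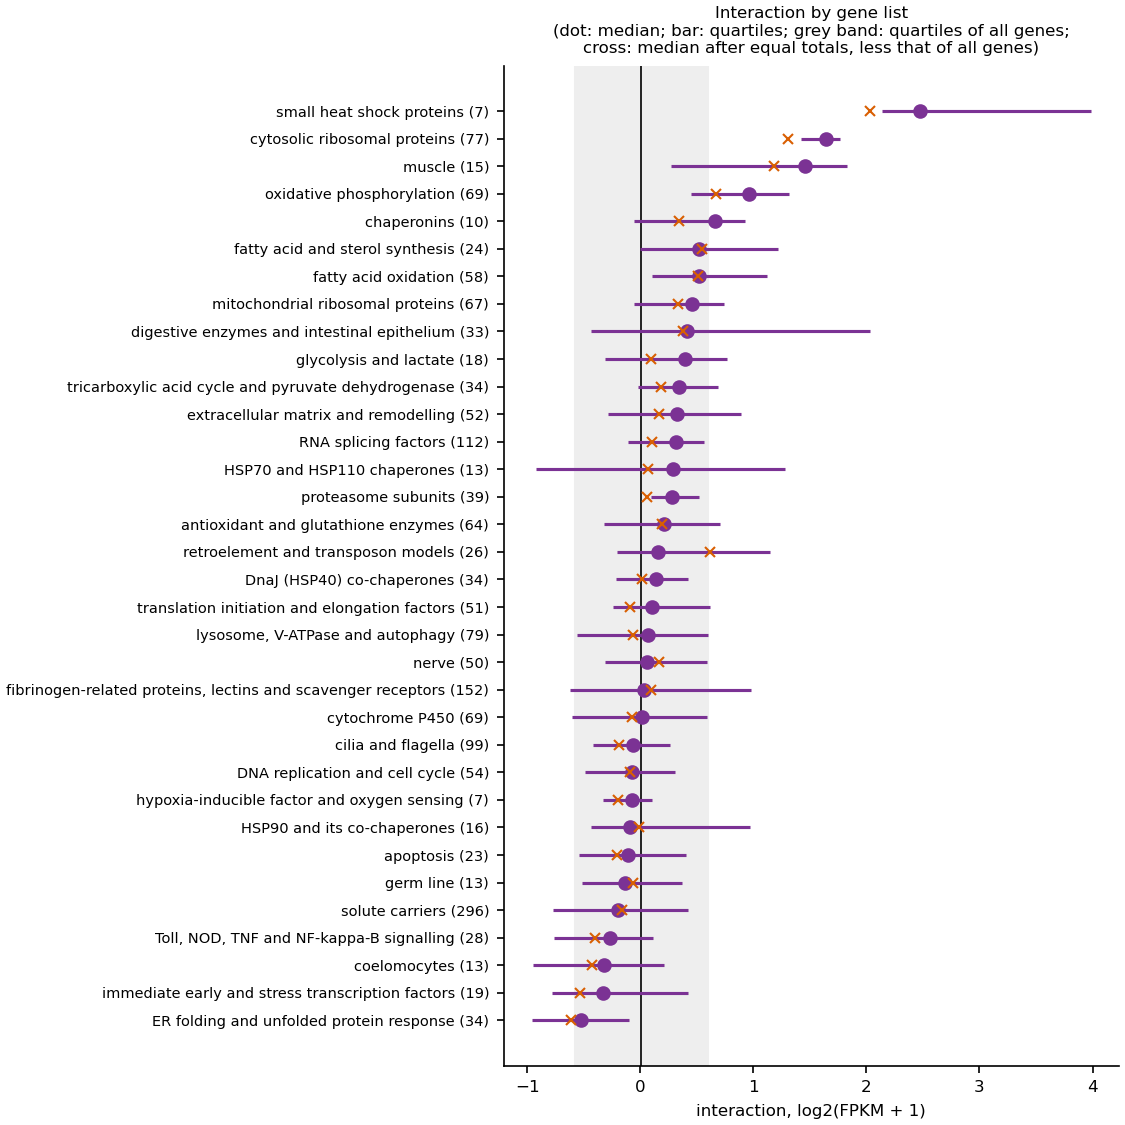
Dots are the median interaction of each gene list on the log2(FPKM + 1) scale, with the number of genes tested in brackets, bars are the quartiles of its members, the grey band spans the quartiles of all genes, and crosses give the list median after scaling to equal totals, less the median of all genes. Small heat shock proteins at 2.47 and cytosolic ribosomal proteins at 1.64 lie at the top and ER folding at -0.53 at the bottom.

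Markers of other cell types were examined beside these lists. The muscle list had 15 genes, all tested, 13 with a positive interaction, a median of 1.45 and none past the threshold. The median was 0.93 without low-oxygen replicate 1 and 0.85 without combined replicates 1 and 3. Its summed FPKM was 413 to 1189 in controls, 456 to 804 at low oxygen, 586 to 790 at high temperature and 1104 to 2388 where both were applied, and none of its genes was at 0 in all libraries. Muscle markers were therefore highest in the combined libraries, though the control and combined ranges overlapped. Their part in the ribosomal and respiratory values was not tested. Ciliary genes, 99 tested, had a median of -0.06, which was -0.73 without combined replicate 1 and 0.38 without combined replicate 2, and their sum was 2091 in combined replicate 1 against 198 to 667 in the other libraries. Coelomocyte markers, 13 tested for the circulating immune cells of echinoderms, had a median of -0.32, and their sum was 3495 in combined replicate 1 against 432 to 1195 elsewhere. Nerve markers had a median of 0.06 over 50 genes and germ line markers one of -0.14 over 13. The part of ciliary and coelomocyte RNA in the values of combined replicate 1 was not tested.

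**Figure D5:**
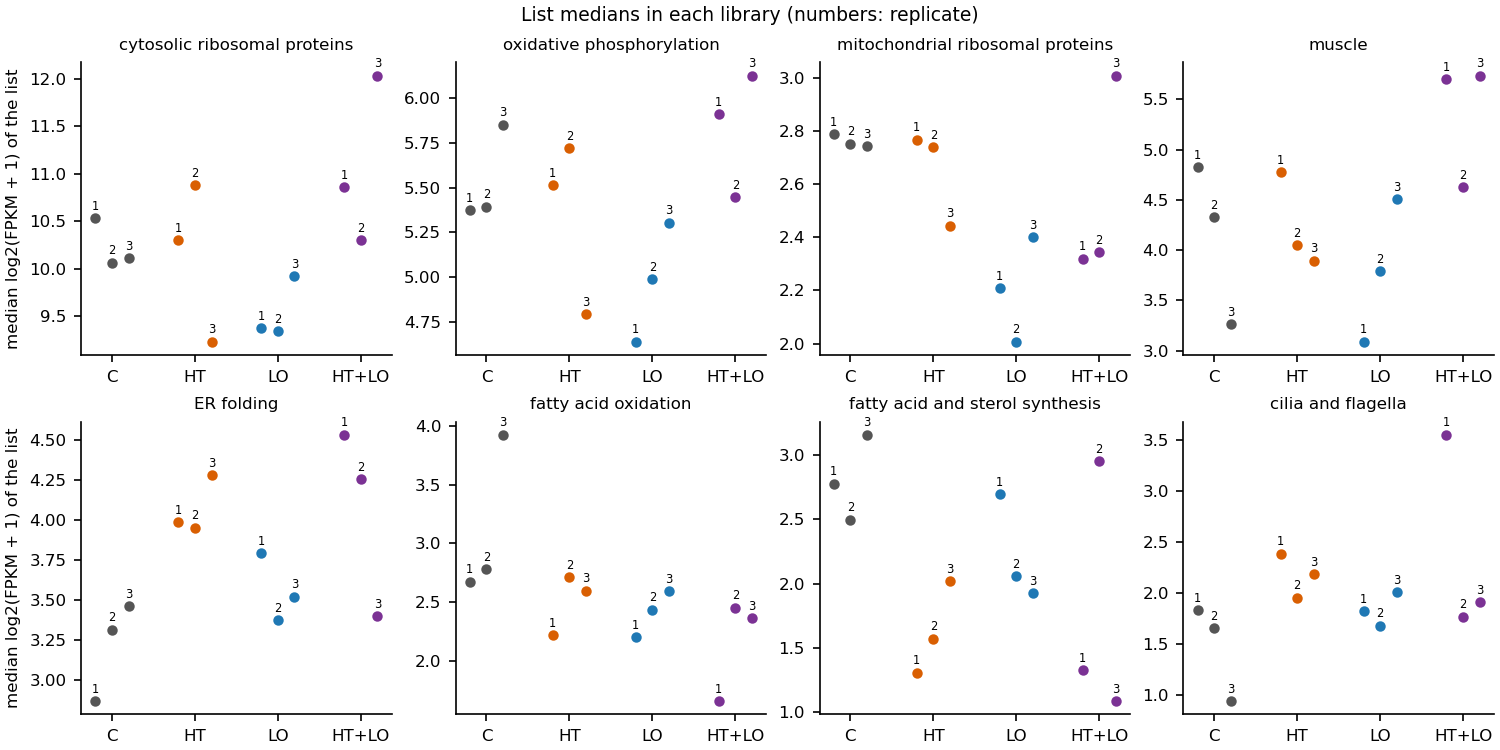
Each point is the median log2(FPKM + 1) over the tested genes of a list in 1 library, numbered by replicate, for control (C), high temperature (HT), low oxygen (LO) and combined (HT+LO) animals. Combined replicate 3 is highest for ribosomal genes at 12.03, and combined replicate 1 is highest for ciliary genes.

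The 4 lipid synthesis genes with the smallest p had lower means than the controls under each stress alone and in the combined animals. Choosing genes by the interaction favours high controls beside low single-stress levels, so this shape is no result about lipid synthesis genes as a group. Over all 24 synthesis genes tested the median difference from control was -0.42 at high temperature, -0.28 at low oxygen and -0.49 in the combined animals, and 0 of the 24 passed the threshold in any of these. ATP-citrate synthase (ACLY), which makes cytosolic acetyl-CoA for fatty acids, was at 45.8, 60.6 and 154 in controls, 12.2, 12.3 and 9.88 at high temperature, 17.4, 12.7 and 15 at low oxygen and 11.1, 26.7 and 28.9 in the combined animals. Every stressed library was below every control, and the stressed groups lay close together against a sum of 1.59. The interaction was 3.06 ± 0.68 (adjusted p = 0.248). Fatty acid synthase (FASN) was at 22.8, 327 and 244 in controls, 7.47 to 16.5 at low oxygen, 1.17 to 1.74 at high temperature and 1.53, 36.9 and 4.44 in the combined animals. Its interaction was 5.07 ± 1.42 (adjusted p = 0.531). Stearoyl-CoA desaturase (SCD5; 6.52 ± 1.93, adjusted p = 0.582) and the elongase ELOVL6 (5.93 ± 1.43, adjusted p = 0.344) had larger values still. For FASN, SCD5 and ELOVL6 the sum lies below an FPKM of 0, so the size of the interaction there measures how high the controls were. Combined replicate 2 held the highest combined value of these 3 genes, at 16.1 to 41.1 FPKM.

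Over the whole lists, fatty acid and sterol synthesis had a median interaction of 0.52 with 18 of 24 positive, and fatty acid oxidation 0.52 with 46 of 58 positive. Neither had a member past the threshold, and both medians turned negative, at -0.22 and -0.25, after scaling to equal totals. The median of all genes was -0.76 under that scaling, and the lists lay 0.54 and 0.51 above it. The oxidation median was 0.28 without control replicate 3, and the synthesis median ranged from 0.29 without combined replicate 2 to 0.79 without combined replicate 3. CROT, which moves medium-chain fatty acids out of peroxisomes, was at 34.7, 173 and 288 in controls, 4.69 to 7.63 at low oxygen, 0 to 1.4 at high temperature and 1.34, 29.0 and 0 in the combined animals (5.63 ± 1.49, adjusted p = 0.49). The carboxypeptidase CPA4 (evm_TU_Chr11_3), a digestive enzyme, had the same shape, at 5.67, 8.77 and 168 in controls, 0.151 to 1.11 under single stress and 1.53, 6.97 and 3.39 in the combined animals (5.32 ± 1.33, adjusted p = 0.411). For CROT and CPA4 as well the sum lay below an FPKM of 0. The digestive list had a median of 0.41 over 33 genes, with 19 positive and none past the threshold. That median was 0.09 without low-oxygen replicate 1, 0.98 without combined replicate 1 and 1.28 without combined replicates 1 and 3. In 9 of those 33 genes, and in 5 of the 24 synthesis genes, the sum lay below an FPKM of 0.

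The hypoxia pathway had no departure past the threshold. Hypoxia-inducible factor 1-alpha (hif1a), the oxygen-regulated transcription factor, was at 163, 122 and 60.5 in controls, 178, 240 and 184 at high temperature, 111, 114 and 324 at low oxygen and 547, 401 and 229 in the combined animals. Combined libraries were the highest on average but overlapped both single stresses, and the interaction was 0.30 ± 0.74 (adjusted p = 0.941). The 7 genes of the list had a median of -0.07, with 3 positive. Transcript levels do not show the protein, which is regulated by its breakdown. Lactate dehydrogenase (ldha), the last step of anaerobic glycolysis, had an interaction of 0.84 ± 0.79 (adjusted p = 0.825), with 19.1 to 51.0 FPKM in the combined animals and 6.42 to 31.5 in all others. In glycolysis as a whole 11 of 18 genes were positive, with a median of 0.40 and none past the threshold. Without control replicate 3 that median was -0.01. Hexokinase (Hk1; 1.79 ± 0.64, adjusted p = 0.705), the entry step, was at 14.2 to 35.6 in controls, 7.41 to 15.1 under single stress and 12.8, 15.6 and 31.5 in the combined animals.

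Clearance of damaged protein was represented by Sqstm1, the autophagy receptor p62. It was at 48.9 to 81.3 in controls, 89.6 to 119 under single stress and 504, 3250 and 342 in the combined animals. All combined libraries were highest, and it rose in the combined group against control (log2 3.71, adjusted p = 0.0215), with an interaction of 2.36 ± 0.92 (adjusted p = 0.745). Prcp, a lysosomal carboxypeptidase, was at 8.53 to 22.4 in the other 9 libraries and at 236, 111 and 66.8 in the combined ones (2.73 ± 0.72, adjusted p = 0.49). The lysosome and autophagy list had a median of 0.07, with 43 of 79 positive. Proteasome subunits, which degrade ubiquitin-tagged proteins, had 0.28, with 31 of 39 positive and none at an unadjusted p under 0.05.

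Immune and matrix genes gave mixed values. The NFKB1 match, an NF-kappa-B subunit, was at 7.81 to 24.1 in the other libraries and at 66.3, 65.1 and 40.4 in the combined ones (2.40 ± 0.69, adjusted p = 0.551). ANGPTL7, a secreted fibrinogen-domain protein, was at 260 to 501 in controls, 8.99 to 165 under single stress and 43.3, 8.70 and 49.1 in the combined animals (4.15 ± 1.24, adjusted p = 0.582). The first had its highest level in all 3 combined libraries, and the second had every stressed library below every control. The 152 fibrinogen-related, lectin and scavenger receptor genes had a median of 0.03 and the 28 Toll, NOD, TNF and NF-kappa-B genes one of -0.27, with no member past the threshold in either. A lysyl oxidase, loxl3a, which cross-links collagen, was at 16.6 to 46.3 elsewhere and at 181, 71.1 and 71.7 in the combined animals (2.36 ± 0.61, adjusted p = 0.458). Collagen IV (COL4A5) was at 58.3 to 114 elsewhere and at 370, 171 and 217 in the combined animals (1.65 ± 0.56, adjusted p = 0.681). The matrix list had 36 of 52 positive and a median of 0.32.

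The splicing factors with the smallest p had lower means at high temperature than in the combined animals, and none passed the interaction threshold. Choosing genes by the interaction favours that order, so it is no result about splicing factors as a group. Over all 112 the median difference between high temperature and control was -0.10. HNRNPA1, an RNA-binding splicing regulator, was at 261, 247 and 180 in controls, 49.7, 83.7 and 34.9 at high temperature, 157, 157 and 244 at low oxygen and 95, 199 and 465 in the combined animals. High-temperature libraries were below all others, and the combined ones spread widely (2.26 ± 0.76, adjusted p = 0.67). SRSF6 (1.69 ± 0.58, adjusted p = 0.69) and SRSF2 (1.23 ± 0.49, adjusted p = 0.758), serine and arginine rich splicing factors, had the same order of high-temperature and combined means. Over 112 splicing factors 81 were positive, with a median of 0.31 and none past the threshold. The stress transcription factors had a median of -0.33, with 7 of 19 positive: KLF6 was at 0.530, 2.02 and 1.08 in the combined animals against 2.05 to 6.97 elsewhere (-1.82 ± 0.56, adjusted p = 0.594), while a FOS match was at 232, 159 and 81.0 against 16.2 to 48.1 (2.01 ± 0.69, adjusted p = 0.69).

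The other lists had medians within the quartiles of all genes and no member past the threshold. They were translation factors at 0.10 (51 genes), antioxidant and glutathione enzymes at 0.21 (64 genes), cytochrome P450 genes at 0.01 (69 genes), solute carriers at -0.20 (296 genes), apoptosis genes at -0.11 (23 genes) and DNA replication and cell cycle genes at -0.07 (54 genes). Among antioxidant genes SOD1, copper-zinc superoxide dismutase, had an interaction of 1.14 ± 0.54 (adjusted p = 0.766), with 56.7 to 109 FPKM under low oxygen against 107 to 207 in combined animals.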

How the data were processed

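Total RNA of sea cucumber intestine was sequenced without a stated strand-marking step, per the labels' protocols. The authors deposited 1 table of FPKM per gene model. Its values already carried a median-of-ratios scaling. The normalising library sizes matched those given by that method over 12900 genes, with a largest relative difference of 2.56e-14. Aligner, counter and genome build: not given in the sources used here. Multiplying FPKM by length and library scale returned whole fragments (tolerance 1e-06) for 100% of values. FPKM, not counts, was the main input: log2(FPKM + 1) of all 12 libraries was fitted in limma 3.58.1 (R 4.3.3) with a mean per group, a variance trend, moderated two-sided tests and Benjamini-Hochberg adjustment over 15615 genes, threshold 0.05. The fit was tested on simulated data.

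Gene lists (34) came from symbol and description patterns, and stray matches were removed after they were seen. Members and lists were chosen with earlier results of these data known. Genes were named if past the threshold, or as the named genes with the smallest unadjusted p and an absolute interaction of at least 1, as up to 4 members per list with the smallest p, or as sentinels (the HSP70, HSP90, HIF1A and LDH gene of highest mean FPKM). Alternatives changed the pseudocount, transformation, filter, scaling, weights, replicate block, test and libraries. Errors are standard errors of the log2 interaction.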

Additional observations from a re-analysis of the deposited data

Results flagged for a closer look

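For 8 genes the response to warming differed between oxygen levels by the interaction test itself (limma, adjusted p under 0.05). On the log2(FPKM + 1) scale the difference was 7.39 for the minus-strand model on chromosome 10, 5.27 for the plus-strand model of the same stretch, 5.86 for evm_TU_Chr21_398 and 4.74 for evm_TU_Chr20_326. It was 4.06 for the retrotransposon match on chromosome 4, 3.82 for SrpRalpha (evm_TU_Chr15_285), 3.43 for the chromosome 9 model beside CG9164 and 3.15 for the one beside TTLL9. Of the 8, 6 reached the FPKM minimum only through the combined libraries.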

How the results depend on the processing

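The 8 positive genes and 0 negative ones were recounted under each alternative. Positive genes numbered 1 with a pseudocount of 0.1, 7 with 5, 4 on the square root of FPKM, 4 without a filter, 3 with a filter at FPKM 5, 1 after scaling to equal totals, 21 with library weights, 8 without the variance trend and 0 with voom, whose smallest adjusted p among the 8 was 0.106. Leaving out 1 library gave 2 to 18 positive and 0 to 2 negative genes, and leaving out combined replicates 1 and 3 gave 58 and 3. Negative genes numbered 1 after scaling to equal totals and 2 with library weights, and 0 in the other fits on all libraries. The cause of these changes was not tested. A replicate block left 2 positive genes. Same-numbered libraries correlated between -0.170 and 0.178 (median 0.067), with 6 of 18 pairs over 0.1, against a median of -0.009 for other pairs. The rule for a paired fit was that every same-numbered pair exceed 0.1, so the main fit is unpaired. Correlations this weak cannot settle whether the numbers pair the animals. Of 184 combinations of the 8 genes and the alternatives, 100 stayed past the threshold, 84 did not and 0 changed sign. Among the 34 list medians, 32 moved by over 1.5 times without 1 library, and 11 of them changed sign; the respiratory and ribosomal medians did neither. With 3 libraries a group the median standard error was 0.70, and the smallest departure that passed was 3.15.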
